A study of Mus musculus with 7 samples.

Results

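The genes described here are 10 members of the AP-1 and immediate early group, namely Junb, Jun, Jund, Fos, Fosb, Egr1, Egr2, Ier2, Nr4a1 and Dusp1. They were taken by gene symbol from the platform annotation of an Illumina expression array, where each had 1 probe, which gives 10 of 16593 named genes and 10 of 25695 probes. A probe counted as detected on an array when its detection p-value was under 0.05, and probes detected on at least 3 arrays were tested. Of the 10 members 7 passed this filter, while Fosb, Ier2 and Nr4a1 did not.

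AP-1 is a family of transcription factors formed by pairs of Jun and Fos proteins. Their genes, with those of the zinc finger factors Egr1 and Egr2 and of the phosphatase Dusp1, are transcribed within minutes of a signal and decay quickly. In thymocytes such genes respond to the T cell receptor, and in many tissues they also respond to stress during handling of the sample.

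Whole thymus from 3 RelB-/- and 4 RelB+/- mice was compared, all 8 weeks old, with 1 array per mouse. RelB belongs to the NF-kB transcription factor family, in its alternative pathway. Both groups carry a disrupted Relb allele, on both copies in RelB-/- mice and on 1 copy in RelB+/- mice, and the sample titles call the RelB+/- mice wild type. The sources used here do not give the kind of disruption, the sex of the mice or the time from death to RNA extraction.

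All 7 arrays lay on 1 chip, with RelB-/- mice at positions B, D and F and RelB+/- mice at A, C, E and G. Median raw intensity spanned 105.2 to 142.3 for RelB-/- and 103.5 to 136.1 for RelB+/- mice, and 45.9% to 49.4% of probes were detected. Relb itself read 102.5, 118.2 and 120.5 in raw intensity in RelB-/- mice 1 to 3, against 223.1, 179.8, 253.4 and 307.8 in RelB+/- mice 1 to 4. The probe passed detection in 0 of 3 RelB-/- and 4 of 4 RelB+/- mice. The log2 fold was -2.67 (limma adjusted p = 0.000229). Since the probe was not detected in RelB-/- mice, the level there is given by a bound, at least 4.58-fold lower. The bound sets the RelB+/- mean against the lowest detected signal of each RelB-/- array, or the probe's own value where that was higher. Of the thymocyte markers with a probe, 9 of 10 were detected on each array, and the Cd8a probe was detected on none. Heart muscle transcripts stood out on RelB-/- 3, where 10 of 11 markers were detected, and on RelB+/- 2, where 8 were. On the other arrays 1 or 2 were detected.

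The promoters of 4 members are printed because these genes carry the patterns described below: Junb was the member called lower, Fos had the largest difference in the main setting, Egr2 differed in the opposite direction, and Dusp1 varied with Fos from mouse to mouse. Each window runs from 250 bases before to 50 bases after the gene's start in RefSeq, on build GRCm38.p6, read 5′ to 3′ on the gene's strand, with matches to a searched motif in capitals.
Junb, chr8:84978699-84978998, minus strand: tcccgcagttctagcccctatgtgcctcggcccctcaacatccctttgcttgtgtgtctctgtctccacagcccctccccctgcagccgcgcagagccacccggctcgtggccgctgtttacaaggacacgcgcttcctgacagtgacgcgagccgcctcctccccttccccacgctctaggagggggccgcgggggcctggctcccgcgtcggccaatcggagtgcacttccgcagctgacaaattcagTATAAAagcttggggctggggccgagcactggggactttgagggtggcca
Fos, chr12:85473640-85473939, plus strand: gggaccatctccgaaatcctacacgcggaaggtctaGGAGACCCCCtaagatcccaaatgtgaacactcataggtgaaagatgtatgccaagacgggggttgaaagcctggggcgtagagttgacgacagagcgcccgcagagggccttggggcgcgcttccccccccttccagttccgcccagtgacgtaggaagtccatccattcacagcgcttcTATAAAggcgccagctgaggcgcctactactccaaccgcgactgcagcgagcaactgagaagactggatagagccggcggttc
Egr2, chr10:67537619-67537918, plus strand: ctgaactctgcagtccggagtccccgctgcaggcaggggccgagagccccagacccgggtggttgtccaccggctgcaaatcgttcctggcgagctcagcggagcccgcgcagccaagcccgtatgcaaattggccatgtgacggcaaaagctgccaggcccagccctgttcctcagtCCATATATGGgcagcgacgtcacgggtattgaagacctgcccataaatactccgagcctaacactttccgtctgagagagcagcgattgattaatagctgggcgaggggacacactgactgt
Dusp1, chr17:26508423-26508722, minus strand: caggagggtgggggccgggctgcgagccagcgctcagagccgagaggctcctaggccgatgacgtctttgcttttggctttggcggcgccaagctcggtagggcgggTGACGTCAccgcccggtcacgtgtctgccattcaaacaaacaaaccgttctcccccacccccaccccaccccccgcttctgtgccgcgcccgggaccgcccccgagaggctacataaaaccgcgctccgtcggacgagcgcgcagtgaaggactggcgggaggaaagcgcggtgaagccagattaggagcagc

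The motifs were searched on both strands in the windows of 8 members. Egr1 and Ier2 had no window in this search, so the motif counts say nothing about them. The motifs were the AP-1 motif TGANTCA, the cAMP response motif TGACGTCA and the TATA motif TATAAA. The CArG box bound by serum response factor and the kB motif bound by NF-kB were searched too. The capitals in the Junb window are a TATA motif at bases 1 to 6, on the RefSeq start itself. Those in the Fos window are a kB motif and then a TATA motif, the latter at bases -33 to -28 from the start. Those in the Egr2 window are a CArG box, and those in the Dusp1 window the cAMP response motif. The background is given as genes with the motif in any window, of 27025 genes, and as a share of all 32851 windows of that length. The kB motif was present in 3 of the 8 members, Fos, Fosb and Nr4a1, against 1388 genes (4.51% of windows). The CArG box was present in 1 of 8, Egr2, against 488 genes (1.63% of windows). For Egr2, 4 of its 5 overlapping or neighbouring windows held a CArG box. The windows starting at 67537619, 67537620 and 67537680 held the same site, and the window starting at 67537316 held another. Sites outside a window were not searched for any member. The cAMP response motif was in 1 of 8 against 549 genes (1.79% of windows). The TATA motif was in 2 of 8 against 4234 genes (13.6% of windows), and the AP-1 motif in 0 of 8 against 2425 genes (7.81% of windows). No match overlapped another in these windows.

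The members split by direction in RelB-/- thymus. Junb was 2.05-fold lower in RelB-/- thymus, Fos and Jun had lower means, and Egr1 and Egr2 had higher means. Jund and Dusp1 had nearly equal means in both genotypes. Of the 7 members tested, 1 was called lower and 0 higher at an adjusted p under 0.05, adjusted over all 12465 tested probes, of which 0.481% were called lower and 0.0642% higher, 0.546% in all. At an unadjusted p under 0.05 there were 5 of 7, with 3 lower and 2 higher, against 11.9% of all tested probes (6.02% lower and 5.86% higher). The groups did not overlap for 4 of 7 members, 2 lower and 2 higher, against 12.7% of all tested probes (6.15% lower and 6.51% higher). With so few members these counts are descriptive. The median log2 fold of the 7 members was -0.096, against 0.015 over all tested probes.

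**Figure D1:**
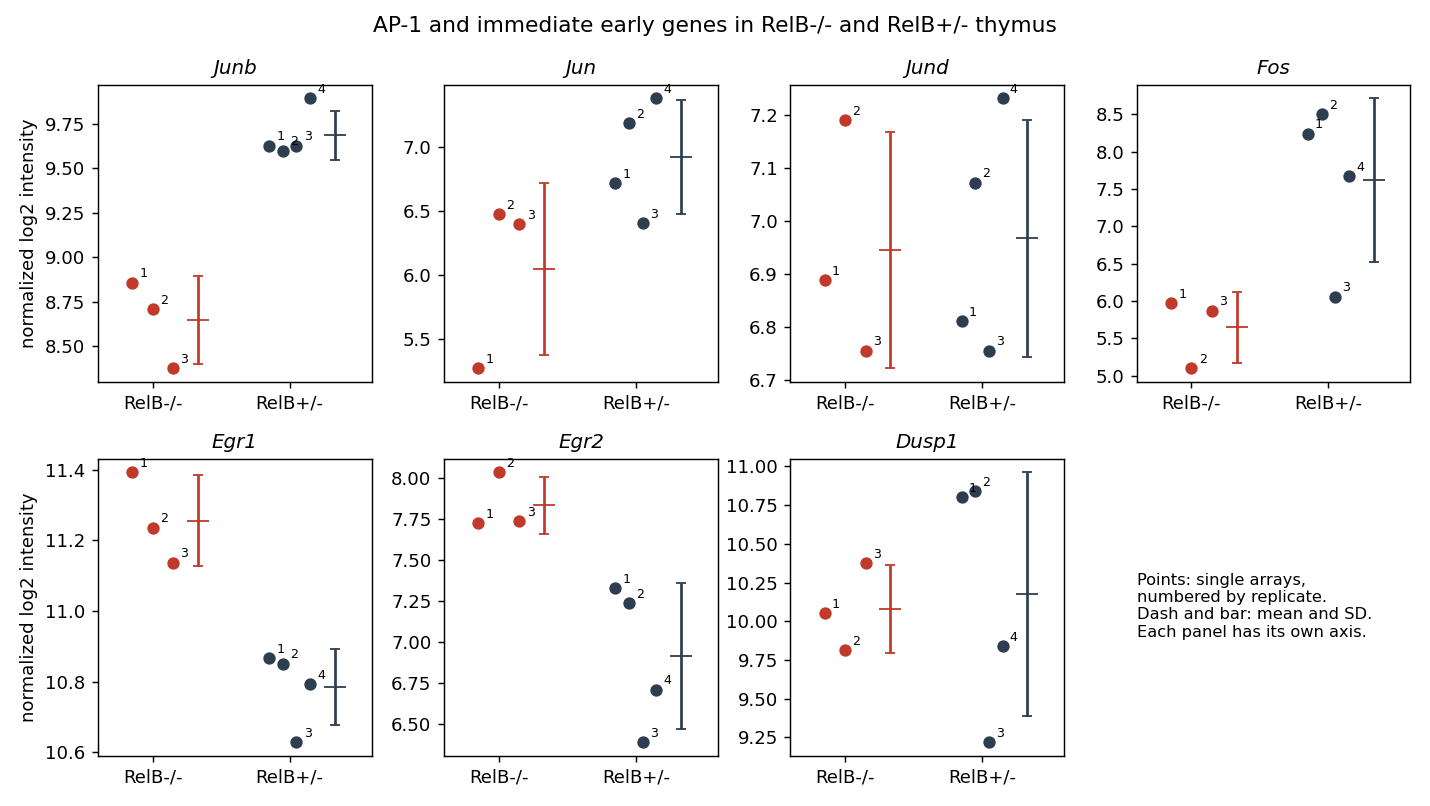
Normalized log2 intensity of the 7 tested members on each array, RelB-/- (red, n = 3) left of RelB+/- (dark, n = 4), with points numbered by replicate and mean and SD beside them. The groups do not overlap for Junb, Fos, Egr1 and Egr2, and the RelB+/- arrays are widely spread for Fos and Dusp1.

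Among the Jun proteins, Junb, an AP-1 subunit that is a weaker activator than Jun on many targets, fell in RelB-/- thymus. Its normalized log2 intensity was 8.86, 8.71 and 8.38 in RelB-/- mice 1 to 3, against 9.63, 9.60, 9.63 and 9.89 in RelB+/- mice 1 to 4. Every RelB-/- array lay below every RelB+/- array, and RelB+/- 4 lay above the other RelB+/- arrays. The mean was 8.65 ± 0.25 (SD, n = 3) in RelB-/- and 9.69 ± 0.14 (SD, n = 4) in RelB+/- thymus. The log2 fold was -1.04 (SE 0.16, limma adjusted p = 0.0401), a 2.05-fold lower level. The groups were also apart before normalization, at raw intensities of 444.3, 512.6 and 482.8 in RelB-/- and 904.2, 607.5, 927.9 and 1322 in RelB+/- thymus.

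The call of Junb was narrow. It was lost when any single array was left out, with log2 folds from -1.14 to -0.90 and limma adjusted p from 0.0793 to 0.111. It was also lost without both arrays with heart muscle transcripts (-0.93, adjusted p = 0.200), and it was made under 11 of 22 processing alternatives. The direction was the same under all 22.

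Jun, the founding AP-1 subunit, read 5.27, 6.48 and 6.40 in RelB-/- mice 1 to 3, against 6.72, 7.19, 6.41 and 7.38 in RelB+/- mice 1 to 4. RelB-/- 1 was lowest, and RelB-/- 2 lay above RelB+/- 3, so the groups overlapped. The log2 fold was -0.88 (SE 0.34), which did not pass the test (limma adjusted p = 0.384), and without RelB-/- 1 it was -0.49.

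Jund, the Jun protein that is least dependent on stimulation, read 6.89, 7.19 and 6.76 on RelB-/- arrays and 6.81, 7.07, 6.76 and 7.23 on RelB+/- arrays. The groups covered nearly the same range. Its log2 fold was -0.02 (SE 0.18, limma adjusted p = 0.972), with a 95% interval from -0.43 to 0.38.

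Fos, the Fos protein that pairs with Jun proteins, had the largest difference of the members with the background correction used here. It read 5.97, 5.10 and 5.87 in RelB-/- mice 1 to 3, against 8.24, 8.50, 6.06 and 7.67 in RelB+/- mice 1 to 4. The groups did not overlap, but RelB+/- 3 lay just above the highest RelB-/- array, while the other RelB+/- arrays lay well above. The mean was 5.65 ± 0.48 (SD, n = 3) in RelB-/- and 7.62 ± 1.10 (SD, n = 4) in RelB+/- thymus. The log2 fold of -1.97 (SE 0.54) did not pass the test (limma adjusted p = 0.241). Without RelB+/- 3 it was -2.49 and was called (limma adjusted p = 0.0239). With the authors' processed values it was -0.73, smaller than the -0.77 of Junb there, and without background correction it was -1.06. In raw intensity Fos read 128.7, 138.6 and 178.2 in RelB-/- and 396.0, 326.5, 167.0 and 385.2 in RelB+/- thymus, so that before normalization RelB-/- 3 lay above RelB+/- 3.

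Fosb, a second Fos protein, passed detection in RelB-/- 1 and RelB+/- 4 only and was not tested. It read 123.0, 128.5 and 144.5 in raw intensity for RelB-/- mice, against 120.8, 96.8, 103.5 and 142.7 for RelB+/- mice. These signals lie near background, and the groups overlapped.

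Egr1 and Egr2, zinc finger factors that the T cell receptor induces during thymocyte selection, differed in the direction opposite to Junb and Fos. Egr1 read 11.39, 11.24 and 11.14 in RelB-/- mice 1 to 3, against 10.87, 10.85, 10.63 and 10.79 in RelB+/- mice 1 to 4. The groups did not overlap, and both were tight, at 11.26 ± 0.13 (SD, n = 3) in RelB-/- and 10.78 ± 0.11 (SD, n = 4) in RelB+/- thymus. The log2 fold was 0.47 (SE 0.14), a 1.39-fold higher level, which did not pass the test (limma adjusted p = 0.285). Before normalization the groups overlapped, with raw intensities of 2279, 2585 and 2701 in RelB-/- and 2041, 1377, 1724 and 2302 in RelB+/- thymus.

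Egr2 read 7.72, 8.03 and 7.74 in RelB-/- mice 1 to 3, against 7.33, 7.24, 6.39 and 6.71 in RelB+/- mice 1 to 4. Each RelB-/- array lay above each RelB+/- array, and RelB+/- 3 and 4 were lowest. The log2 fold was 0.92 (SE 0.24), a 1.89-fold higher level, which did not pass the test (limma adjusted p = 0.227). The values processed by the authors gave 0.41 (adjusted p = 0.203), and signals without background correction gave 0.57 (adjusted p = 0.193). Before normalization the groups overlapped, with raw intensities of 241.5, 351.1 and 352.8 in RelB-/- and 251.2, 184.7, 187.9 and 248.2 in RelB+/- thymus.

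Dusp1, the phosphatase that switches off MAP kinases, had means of 10.08 ± 0.28 (SD, n = 3) in RelB-/- and 10.17 ± 0.79 (SD, n = 4) in RelB+/- thymus. It read 10.05, 9.81 and 10.37 on RelB-/- arrays, within the range of the RelB+/- arrays, which read 10.80, 10.84, 9.22 and 9.84. The log2 fold was -0.096 (SE 0.39, limma adjusted p = 0.943), and its 95% interval, from -0.99 to 0.80, was the second widest of the 7 after that of Fos.

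Ier2, a nuclear immediate early protein, and Nr4a1, an orphan nuclear receptor that the T cell receptor induces, were at background. Ier2 passed detection in 0 of 3 RelB-/- and 1 of 4 RelB+/- mice, with raw intensities of 97.6 to 132.0 in RelB-/- and 86.3 to 137.5 in RelB+/- thymus. Nr4a1 was detected on 0 of 7 arrays, with raw intensities of 86.9 to 132.1 in RelB-/- and 85.8 to 110.8 in RelB+/- thymus. No level can be given for Nr4a1 from this probe.

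Comparing 2 members on the same array removes any scaling between arrays. Such log2 differences were taken from background-corrected signals that were not normalized between arrays, for all 21 pairs of tested members, and were not tested. Only their change between genotypes has a meaning, since probes differ in brightness. The difference of Fos minus Egr1 was -5.51, -6.24 and -5.32 in RelB-/- mice 1 to 3, against -2.69, -2.39, -4.42 and -2.98 in RelB+/- mice 1 to 4, so the groups did not overlap, with RelB+/- 3 nearest to the RelB-/- arrays.

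The difference of Junb minus Egr1 was -2.60, -2.61 and -2.81 in RelB-/- and -1.26, -1.30, -0.96 and -0.85 in RelB+/- thymus, a gap wider than either group's range. Measured against Jund, the mean change in RelB-/- thymus was -0.91 for Junb and 0.97 for Egr2 on the log2 scale. The groups were apart for 13 of the 21 pairs, against 12.3% of all pairs of tested probes. Pairs that share a gene are not independent of one another, so this count is a description. Among the 8 pairs that overlapped were Fos minus Junb, Fos minus Jun and Egr2 minus Egr1, members that differed in the same direction. The others were Junb minus Jun, and Dusp1 paired with Junb, Jun, Jund or Egr1.

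**Figure D2:**
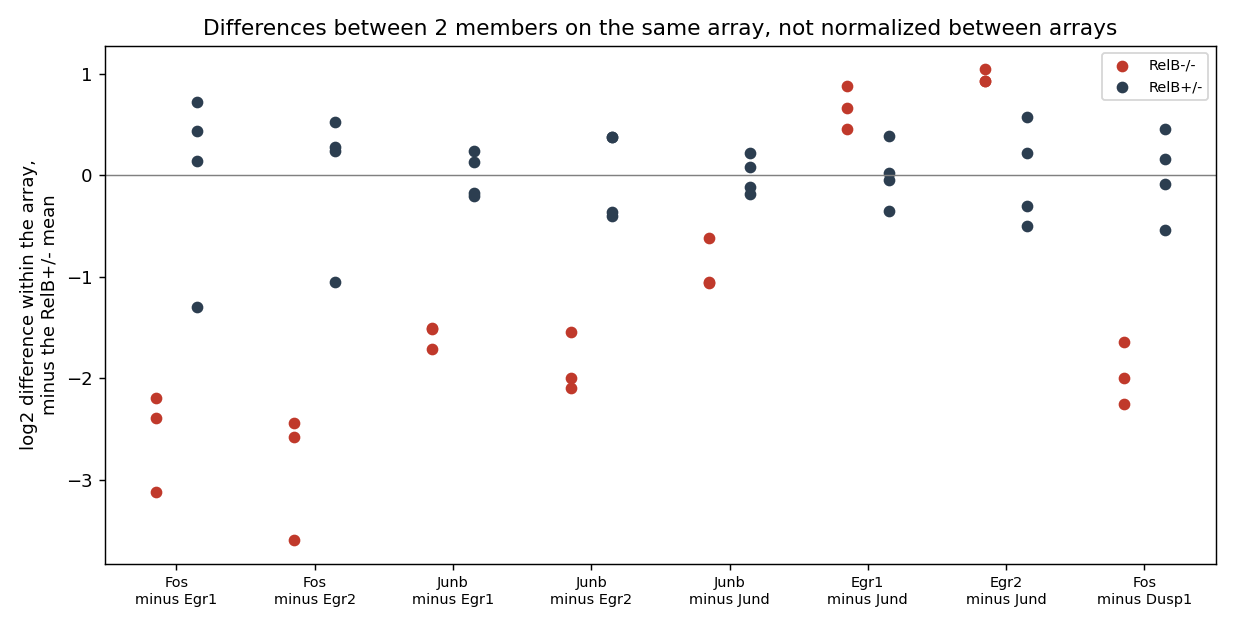
Log2 difference between 2 members on the same array, minus the RelB+/- mean of that difference, for 8 of the 21 pairs, chosen for display after the values were seen, with RelB-/- arrays (red) left of RelB+/- arrays (dark). The groups are apart in each pair shown, with RelB-/- below RelB+/- for Fos against Egr1, Egr2 and Dusp1 and for Junb against Egr1, Egr2 and Jund, and above it for Egr1 and Egr2 against Jund.

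Within a genotype, Fos and Dusp1 were lowest on the same arrays. Among RelB+/- mice, replicates 1 and 2 were highest for both and replicate 3 was lowest for both. Among RelB-/- mice, replicate 2 was lowest for both, while Fos was highest in replicate 1 and Dusp1 in replicate 3. With each genotype's mean taken off, Pearson's r was 0.93 and Spearman's rho 0.93 over 7 arrays, and r was 0.88 without RelB-/- 2 and RelB+/- 3. Egr2 also varied with Dusp1 (r 0.84, rho 0.86), but r was 0.52 without RelB+/- 1 and RelB+/- 3. Egr2 varied with Fos (r 0.73, rho 0.71), with an r of 0.90 without RelB-/- 2 and RelB+/- 3. Egr1 also varied with Fos (r 0.72, rho 0.75), with an r of 0.42 without the same arrays. Junb did not follow Fos (r -0.045, rho -0.32). These values over all 21 pairs of tested members, from -0.35 to 0.93, describe 7 arrays of 1 chip and were not tested.

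**Figure D3:**
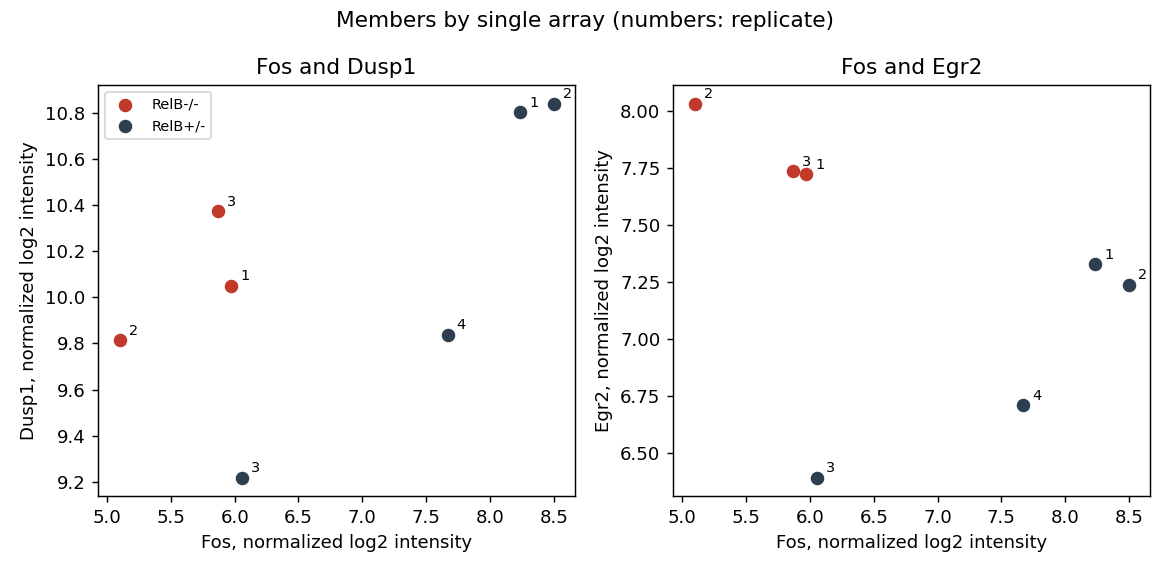
Normalized log2 intensity of Dusp1 (left) and Egr2 (right) against Fos on each array, RelB-/- in red and RelB+/- in dark, numbered by replicate. RelB+/- 1 and 2 are high for both Fos and Dusp1 and RelB+/- 3 is low for both, while the RelB-/- arrays combine low Fos with high Egr2.

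The mean over the 7 tested members, relative to the RelB+/- mean, was -0.42, -0.36 and -0.35 in RelB-/- mice 1 to 3, against 0.19, 0.32, -0.57 and 0.06 in RelB+/- mice 1 to 4. The RelB+/- arrays therefore spanned more than the gap between the genotypes, with RelB+/- 3 the lowest of all. Of 8703 genes ranked by how closely they followed this mean once each genotype's mean was taken off, the 5 closest over 7 arrays were Mrc1, Lrrc8d, Rnf135, Nfkbiz and Aire (r from 0.98 to 1.00). They are the extremes of a long ranking over few arrays. With the genotype mean taken off, the members' mean was -0.042, 0.015 and 0.028 in RelB-/- mice 1 to 3. It was 0.19, 0.32, -0.57 and 0.06 in RelB+/- mice 1 to 4. The likeness of all 5 genes therefore rests mainly on the RelB+/- arrays. Among the 5, Aire passed detection in 0 of 3 RelB-/- mice and 4 of 4 RelB+/- mice.

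Marker genes of other cells moved with these arrays. Normalized intensity summed over the medullary epithelial markers with a probe (9 of 10) was 1330 to 2067 on RelB-/- and 6329 to 7575 on RelB+/- arrays. Of 8 tested members 4 were called lower, namely Ccl21a, Krt14, Fezf2 and Aire. With 1 probe per gene, 0.596% of 9569 tested probes were called lower and 0.0836% higher. Fezf2 and Aire were detected on no RelB-/- array and passed the detection filter through the RelB+/- arrays alone, which fixed their direction. The median log2 fold of the 6 members left was -0.91. For granulocyte markers (12 of 12) the sums were 6234 to 24656 on RelB-/- and 818 to 8557 on RelB+/- arrays. These overlapped, with RelB+/- 2 (8557) above RelB-/- 1 (6234). Of 11 tested members 3 were called higher (Chil3, Ctsg and Mpo), against the same 0.0836%. Chil3 was detected on 3 RelB-/- and 1 RelB+/- arrays, Ctsg on 3 and 2, and Mpo on 3 and 3. Chil3 and Ctsg therefore passed the detection filter only with the RelB-/- arrays, where they were high, as did Elane, Prtn3 and Ngp. Their direction is not independent of the filter. For thymocyte markers (10 of 12) the sums were 48547 to 53293 and 44382 to 47682, with 0 of 9 called. The medullary and thymocyte sums were apart by genotype, while the granulocyte sums overlapped. The part of these cells in the levels of Junb, Fos, Egr1 and Egr2 was not tested. In whole tissue, fewer cells of a type and less RNA per cell cannot be told apart.

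Heart muscle markers (11 of 12) summed to 444.0, 398.8 and 22256 in RelB-/- mice 1 to 3 and 428.4, 8282, 363.5 and 374.4 in RelB+/- mice 1 to 4, with Ryr2 detected on none. Adipocyte markers (9 of 11) summed to 2293 to 10432 on RelB-/- and 4212 to 9186 on RelB+/- arrays, with Fabp4 and Retn detected on none. Fibroblast markers (10 of 10, Col3a1 detected on none) summed to 2968 to 8776 and 5193 to 11719, and endothelial markers (10 of 10) to 1302 to 3327 and 1353 to 1871. Macrophage markers (8 of 10) summed to 4317 to 7746 and 5515 to 10476, and erythroid markers (5 of 8, Hbb-b2 and Epb42 detected on none) to 15215 to 30929 and 18630 to 39765. In each of these lists the groups overlapped and 0 tested members were called, and their part in the members' levels was not tested.

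Related genes were taken from lists, each by its brightest tested probe, and read beside 9569 tested probes left when each gene symbol keeps 1 probe (probes without a symbol included). Of these 0.596% were called lower and 0.0836% higher, 0.679% in all, with a median log2 fold of 0.025. At an unadjusted p under 0.05 there were 6.13% lower and 6.51% higher, 12.6% in all. The counts of each related list below are read beside these shares. Among other immediate early genes 28 of 36 were tested, 1 was called lower and 0 higher, and the median was -0.077. The called gene, Ppp1r15a, a phosphatase subunit that restores translation after stress, read 7.94, 8.19 and 7.66 on RelB-/- arrays and 9.63, 9.73, 9.35 and 9.07 on RelB+/- arrays. The groups were well apart, and its log2 fold was -1.52 (SE 0.21, limma adjusted p = 0.0189). The call was lost without RelB-/- 1, RelB-/- 3 or RelB+/- 1, 2 or 3 (limma adjusted p 0.0561 to 0.0966) and without both arrays with heart muscle transcripts (-1.28, adjusted p = 0.133).

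Of these 28, Egr3, Nr4a2 and Nr4a3 were detected on no RelB-/- array and passed the detection filter through the RelB+/- arrays alone, which fixed their direction. Among the remaining 25 there were 3 lower and 0 higher at an unadjusted p under 0.05, against 6.13% and 6.51% of the 9569 probes (12.6% in all), with a median log2 fold of -0.019. The 3 were Ppp1r15a, Gadd45b and Cited2, the last 2 named after their values were seen. The groups did not overlap for 2 lower genes, Ppp1r15a and Gadd45b, and 2 higher ones, Zfp36l1 (0.27, limma adjusted p = 0.528) and Csrnp1 (0.27, adjusted p = 0.463), against 6.25% and 7.38% (13.6% in all). Gadd45b, a stress sensor, read 5.95, 6.14 and 5.79 on RelB-/- arrays and 7.47, 7.23, 6.57 and 6.95 on RelB+/- arrays, without overlap (log2 fold -1.09, SE 0.22, limma adjusted p = 0.113). Nr4a2 and Nr4a3, relatives of Nr4a1, passed detection in 0 of 3 RelB-/- mice, against 4 of 4 RelB+/- mice for Nr4a2 and 3 of 4 for Nr4a3. The bound on a decrease, taken as for Relb, was 1.22-fold for Nr4a2, 1.02-fold for Nr4a3 and 0.95-fold for Egr3, the last being no decrease. None of these genes passed the test (limma adjusted p = 0.405, 0.253 and 0.466), and their direction was fixed by the filter. Cited2, a transcriptional co-regulator, had a log2 fold of -0.79 (SE 0.31, limma adjusted p = 0.384) and its groups overlapped.

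In the list of other AP-1 and related leucine zipper genes 7 of 16 were tested, 0 were called by limma and 2 had an unadjusted p under 0.05, with a median of 0.29. Batf3, which pairs with Jun proteins, had a log2 fold of -0.56 (SE 0.19, limma adjusted p = 0.338), and Atf2, a partner of Jun, one of 0.42 (SE 0.13, adjusted p = 0.310). Of the dual-specificity phosphatases other than Dusp1, 7 of 11 were tested and 0 were called by limma, with 1 at an unadjusted p under 0.05 and a median of 0.11. Dusp6, which is specific for ERK kinases, had 0.57 (SE 0.18, limma adjusted p = 0.316), and Dusp4 had -0.39 (SE 0.21, adjusted p = 0.496).

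Of the kinases and factors upstream of these genes 14 of 25 were tested and 0 were called by limma, with a median of 0.17. At an unadjusted p under 0.05 there were 3 higher, against 6.51% of the 9569 probes. Elk3 was detected on no RelB-/- array and passed the detection filter through the RelB+/- arrays alone. Without it the median was 0.18. Mapk8, the Jun kinase JNK, read 8.58, 8.50 and 8.23 on RelB-/- arrays and 8.01, 7.63, 7.29 and 7.84 on RelB+/- arrays, without overlap (log2 fold 0.74, SE 0.20, limma adjusted p = 0.224). Mef2d, a factor at the Nr4a1 promoter, had 0.46 (SE 0.18, limma adjusted p = 0.391). It was detected on 3 RelB-/- and 1 RelB+/- arrays, so it passed the filter only with the RelB-/- arrays, where it was high. Srf, the serum response factor that binds CArG boxes, had 0.47 (SE 0.20, limma adjusted p = 0.411), named after its value was seen. In the T cell receptor response list 11 of 16 were tested and 0 were called by limma, with a median of 0.18, against 0.025 over the 9569 probes. There were 2 higher at an unadjusted p under 0.05, against 6.51%. The groups did not overlap for 1 higher gene, against 7.38%. Rasgrp1, which links the receptor to Ras, had 0.50 (SE 0.18, limma adjusted p = 0.353), and Ikzf2 had 0.83 (SE 0.31, adjusted p = 0.363).

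Heat shock genes, which encode chaperones induced by stress, had 9 of 15 tested and 0 called by limma, with 2 lower at an unadjusted p under 0.05 and a median of -0.27. Hspa1a, the inducible chaperone, read 5.88, 7.28 and 6.88 on RelB-/- arrays and 7.17, 7.54, 7.92 and 9.32 on RelB+/- arrays, with overlap (log2 fold -1.31, SE 0.52, limma adjusted p = 0.388). Hspb1 had -1.61 (SE 0.68, limma adjusted p = 0.406). The mean over the list, relative to the RelB+/- mean, was -0.81, -0.36 and -0.19 in RelB-/- mice 1 to 3 and -0.21, -0.24, 0.04 and 0.40 in RelB+/- mice 1 to 4.

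In the glucocorticoid response list 10 of 12 were tested and 0 were called by limma, with 2 lower and 2 higher at an unadjusted p under 0.05 and a median of -0.0046. Cdkn1a, a cell cycle inhibitor, had a log2 fold of -0.75 (SE 0.16, limma adjusted p = 0.124) and Txnip, a regulator of thioredoxin, one of 0.44 (SE 0.17, adjusted p = 0.370). The others, named after their values were seen, were Sgk1 (0.38, adjusted p = 0.416) and Mt1 (-0.71, adjusted p = 0.389). The part that handling had in the levels of the members was not tested, and the sources used here give no time or order of dissection.

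**Figure D4:**
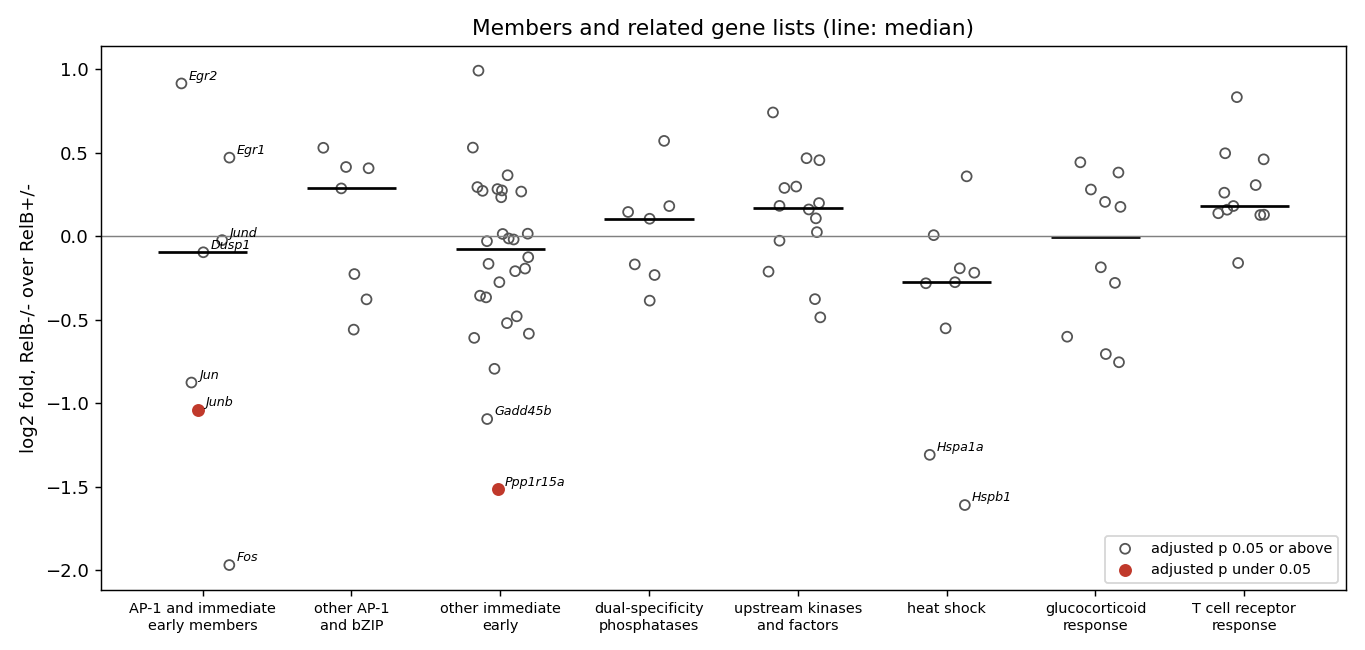
Log2 fold, RelB-/- over RelB+/-, of the tested genes in the member group and 7 related lists, with a line at each median and filled points for an adjusted p under 0.05. Junb and Ppp1r15a are the filled points, Fos is the lowest point and the members span both directions.

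**Figure D5:**
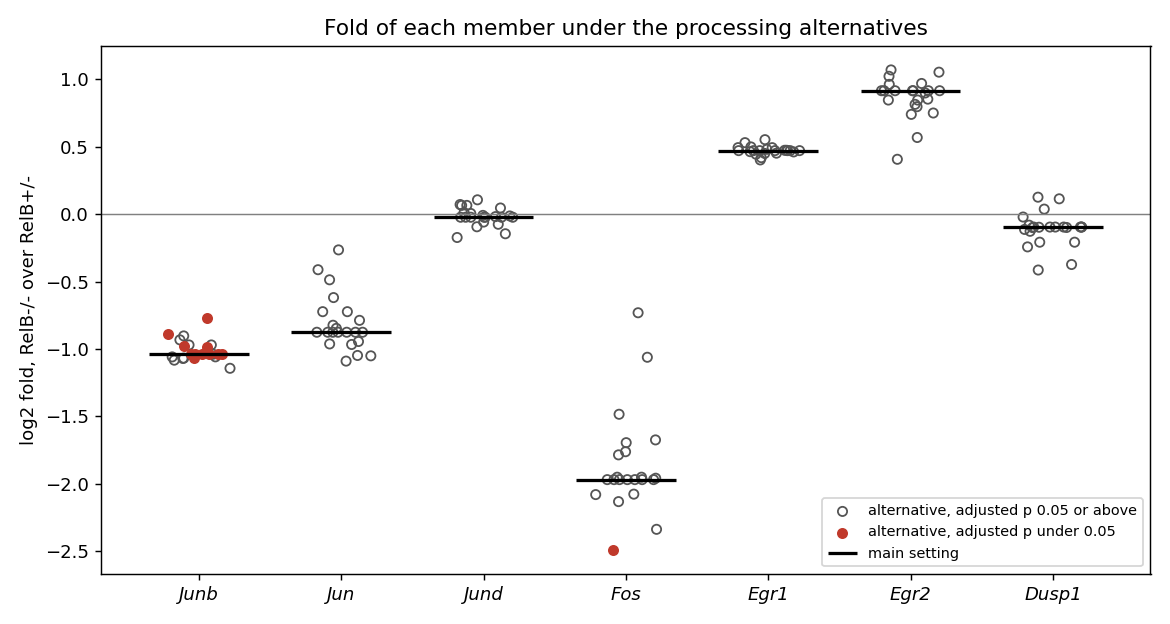
Log2 fold, RelB-/- over RelB+/-, of each tested member under the main setting (line) and up to 22 alternatives (points, filled where the adjusted p is under 0.05). Junb, Jun, Fos, Egr1 and Egr2 keep their direction throughout, while Jund and Dusp1 lie on both sides of 0.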

How the data were processed

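The deposited intensity of each probe is linear and had not been normalized, per the file headers, which also give a detection p-value for every probe and array. The submitters' processing notes name GenomeStudio. The authors also deposited processed values that behave as log2 values for bright probes. The sources used here do not say how they were made. The number of columns of values left unused was 0.

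Background was corrected by normexp in limma 3.58.1 (R 4.3.3) from the detection p-values, with an offset of 16, followed by quantile normalization and log2. The detection filter (p under 0.05, 3 or more arrays) kept 12465 of 25695 probes. The genotypes were compared by lmFit and eBayes, 2-sided, with Benjamini-Hochberg adjustment over all kept probes. Differences are RelB-/- minus RelB+/-. A list's gene was represented by its brightest kept probe. Offset and background shrink the fold of dim probes, and the number of arrays limits the precision. On simulated data with 12465 probes for this comparison, the test recovered 55% of changes of log2 1 and 92% of changes of log2 2, and called 6 unchanged probes.

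Platform symbols were used, and 23960 probes matched the RefSeq gene table of GRCm38.p6, which changed 0 symbols. The members and lists were chosen with earlier results of these data known. Named genes were Relb, all members, per related list up to 4 called genes or else the 2 with the smallest p, and the 5 genes most like the members' mean, clone names aside. Marker lists are given by their counts and sums. Alternatives were other background corrections and offsets, 2 other normalizations, the authors' processed values, the detection filter, variance model, array weights, 1 probe per gene, replicate block, chip position and arrays left out. Figures were drawn with matplotlib 3.10.9.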

Additional observations from a re-analysis of the deposited data

Results flagged for a closer look

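In the group of 4 RelB+/- arrays, 7 member levels and 17 list means were examined for a single array far from the rest, and 2 stood out. Chance flags about 1 in 20 groups. Junb read 9.89 on RelB+/- 4, against 9.60 to 9.63 on the other RelB+/- arrays, and without that array the log2 fold of Junb was -0.97 (limma adjusted p = 0.0793). The 2 tested heart muscle markers, Myl4 and Nppa, averaged 3.80 above the RelB+/- mean on the log2 scale on RelB+/- 2, against -1.48 to -0.98 on the other RelB+/- arrays. Groups of 3 were not examined in this way.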

How the results depend on the processing

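Junb, Jun, Fos, Egr1 and Egr2 kept the sign of their log2 fold under each of 22 alternatives, and 0 members were called higher under any. The count of members called lower, 1 in the main setting, was 0 with median scaling, with probes detected on all 7 arrays, with the replicate block and without both arrays with heart muscle transcripts, and 0 to 1 without single arrays. The 1 without RelB+/- 3 was Fos and not Junb. Over the related lists, with the marker lists left out, the count of genes called lower was 1 in the main setting. It was 0 without both of those arrays and 0 to 1 without single arrays. In the same lists the count of genes called higher was 0 throughout.

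Over all tested probes, 60 were called lower and 8 higher. The counts were 23 and 2 with the authors' processed values, 12 and 3 with probes detected on all 7 arrays, 19 and 1 with the replicate block, and 18 and 1 without both arrays with heart muscle transcripts. With cyclic loess 4 were called higher, and without a detection filter 5. Without single arrays the counts were 27 to 61 lower and 3 to 7 higher. They were 31 lower without RelB-/- 1, 39 lower without RelB+/- 2, 27 lower and 3 higher without RelB+/- 1, and 3 higher without RelB-/- 3 or RelB+/- 3. The cause was not tested, beyond the smaller number of samples or probes in some of these fits.

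The sign of Jund, near 0 in the main setting, turned with array weights (0.046), with the replicate block (0.065), without both arrays with heart muscle transcripts (0.11), and without RelB-/- 1 (0.0052), RelB-/- 3 (0.072), RelB+/- 2 (0.012) or RelB+/- 4 (0.065), within a range of -0.15 to 0.072 without single arrays. That of Dusp1 turned without RelB-/- 2 (0.037), RelB+/- 1 (0.11) or RelB+/- 2 (0.13), within a range of -0.41 to 0.13 without single arrays. The log2 fold of Fos shrank to -0.73 with the authors' processed values (limma adjusted p = 0.291) and to -1.06 without background correction (0.248), that of Jun to -0.26 with the authors' values (0.364) and -0.41 without background correction (0.336), and that of Egr2 to 0.41 (0.203) and 0.57 (0.193). The replicate block left Junb at -0.97 (limma adjusted p = 0.222). The deviations of arrays with the same replicate number correlated across probes at 0.30 for number 1, -0.16 for number 2 and -0.19 for number 3. Not every pair deviated together, so the numbers were not taken to pair the mice. Signals near background limit Fosb, Ier2, Nr4a1, Fos, Jun and Egr2.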
